A study of Mus musculus with 24 samples.

Results

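Spleens of BALB.K mice were compared between the lowest and the myeloablative dose of total body irradiation, 300 and 800 cGy. The comparison takes the 3 arrays titled for each dose, 6 of the 24 arrays of the series, chosen by the dose and strain in their titles. Each array held spleen RNA pooled from 3 mice, and all irradiated mice were taken 24 hours after exposure in an X-ray irradiator. BALB.K is an inbred strain on the BALB background that carries the k haplotype of the major histocompatibility complex. The labels name no other allele, agent, age or sex. A myeloablative dose is one that destroys the blood-forming marrow. The 3 unirradiated arrays (0 cGy, resting mice) and the 3 arrays at 400 cGy of the same strain served to sort genes by their response, because they share no array with the comparison. B10.BR mice, a second inbred strain, were taken at 300 cGy and at their myeloablative dose of 900 cGy, with 3 arrays each. Their step is used only to test whether the BALB.K step differed.

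Ionizing radiation breaks DNA, and the damage stabilises the transcription factor p53, which switches on cell cycle inhibitors, its own inhibitors and death genes. Lymphocytes and dividing blood precursors are among the most radiation-sensitive cells of the body. The mouse spleen holds B and T lymphocytes in its white pulp, and in its red pulp red cell precursors, megakaryocytes, stromal cells and macrophages that clear dying cells. In RNA of a whole organ, fewer cells of a type and less RNA per cell cannot be told apart.

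Signals are the scanner's processed one-colour intensities on a log2 scale, with each array's 75th percentile set to 0, so a level of 1 is a brightness of 2-fold that percentile. Of 55681 probes, 42319 were well above background on all 3 arrays of at least 1 group of the series, and they stood for 29532 genes or other features, of which 19826 had a RefSeq symbol. Between 70.1% and 75.6% of probes were well above background on the 6 arrays, and no probe was saturated. Differences are 800 minus 300 cGy on the log2 scale, written ± their standard error, from limma fitted to all 24 arrays, and a feature was called at a Benjamini-Hochberg adjusted p under 0.05 over all features. The labels do not say whether the pools came from separate irradiations. The p-values measure only the spread between pools of the same group, estimated over all 24 arrays. Markers of B cells (Pax5), T cells (Cd3e), macrophages (Cd68) and red cell precursors (Klf1) were well above background on all 6 arrays. Genes of the exocrine pancreas, which lies against the spleen, were also present, and the list took 0.0215% to 1.03% of the summed signal at 300 cGy and 0.160% to 0.820% at 800 cGy.

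The arrays of the groups differ in 2 respects that touch all results. The first 300 cGy array was on slide 2, with the unirradiated arrays. The other 300 cGy arrays were on slide 3 with all 3 arrays of 800 cGy. All 3 arrays of 400 cGy were also on slide 3, so the sorting by 400 against 0 cGy also compares slide 3 with slide 2. The Y-linked gene Ddx3y was well above background on the 3 arrays at 800 cGy and on the first at 300 cGy, and not on the other two at 300 cGy. No 300 cGy array shared both its slide and its Y-linked signal with the 800 cGy arrays. Each list below was therefore also compared within slide 3, and between the first 300 cGy array alone and the 3 of 800 cGy. That last comparison has 1 array on one side, so it can call fewer genes. The comparison within slide 3 gave the same differences as leaving out the first 300 cGy array, so these are not separate checks. The scaling of the arrays sets how many changes point each way, and every direction below is relative to the 75th percentile unless another scale is named.

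Among the 29532 features, 10778 (36.5%) differed between 300 and 800 cGy. The higher ones numbered 6249 (21.2%) and the lower ones 4529 (15.3%), so 58.0% of calls were higher. With quantile normalization 47.4% of calls were higher, with each array centred on its median 21.8%, with the spike-in probes as the reference 95.6% and with another background correction (normexp) 52.3%. The median of all features was 0.13 on the main scale, moved by -0.26 under centring on the array median, by 0.43 under the spike-in scale, by -0.12 under normexp and by -0.10 under quantile normalization. A change of at least 2-fold was called for 2048 features (6.93%), and 15677 (53.1%) had all 3 arrays of one dose above all 3 of the other. For 10185 features (34.5%) the 95% interval of the difference lay within 1.5-fold in either direction, which bounds any further change between these doses.

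**Figure D1:**
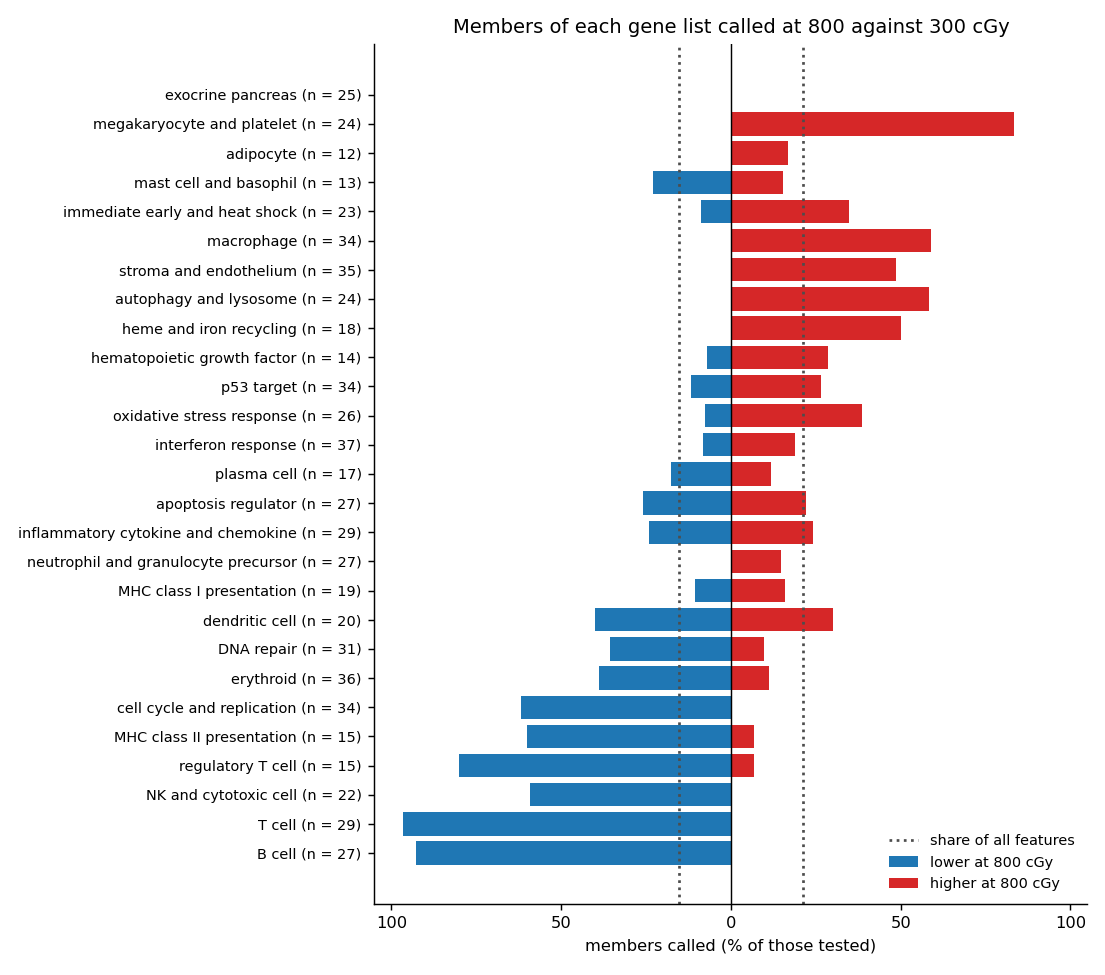
Share of the members of 27 gene lists called higher (right, red) or lower (left, blue) at 800 against 300 cGy, in percent of the members tested, with n the number tested; dotted lines give the shares over all features, 21.2% higher and 15.3% lower. The B cell list had 25 of 27 members lower, the T cell list 28 of 29, and the megakaryocyte and platelet list 20 of 24 higher.

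Dose-graded change was separated from change already complete at 300 cGy with the 400 and 0 cGy arrays. Of 7665 features lower at 400 than at 0 cGy (26.0% of all), 38.0% were lower again at 800 than at 300 cGy and 7.93% were higher. A further 34.6% were not called and lay within 1.5-fold, and 19.5% were neither called nor bounded. Of the called ones, 778 also lay within 1.5-fold. Of 7552 features higher at 400 than at 0 cGy (25.6%), 35.8% were higher again and 4.54% were lower. Here 32.8% were not called and lay within 1.5-fold, 26.9% were neither called nor bounded, and 411 were called but also within 1.5-fold. Of 580 features that had fallen at least 4-fold at 400 cGy, 211 were lower again and 35 higher. A further 113 were not called and lay within 1.5-fold, and 221 (38.1%) were neither called nor bounded. Of 402 that had risen at least 4-fold, 130 were higher again and 8 lower. Only 26 were not called and lay within 1.5-fold, and most, 238 (59.2%), were neither called nor bounded. With the same sorting and the 800 against 300 cGy step within slide 3, 38.3% were lower again and 34.0% higher again. That setting was chosen after seeing the data. With the slide as a block in the sorting and in the step, as planned, these shares were 40.8% and 46.2%. On the scale of the array median they were 60.1% and 15.1%, and on the spike-in scale 9.16% and 62.9%, so the balance of graded and completed change rests on the scale. The BALB.K arrays with Y-linked signal include 1 each at 0, 300 and 400 cGy. With them as the only BALB.K arrays the sorting at 400 against 0 cGy changed too, so that share is not comparable with those above.

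**Figure D2:**
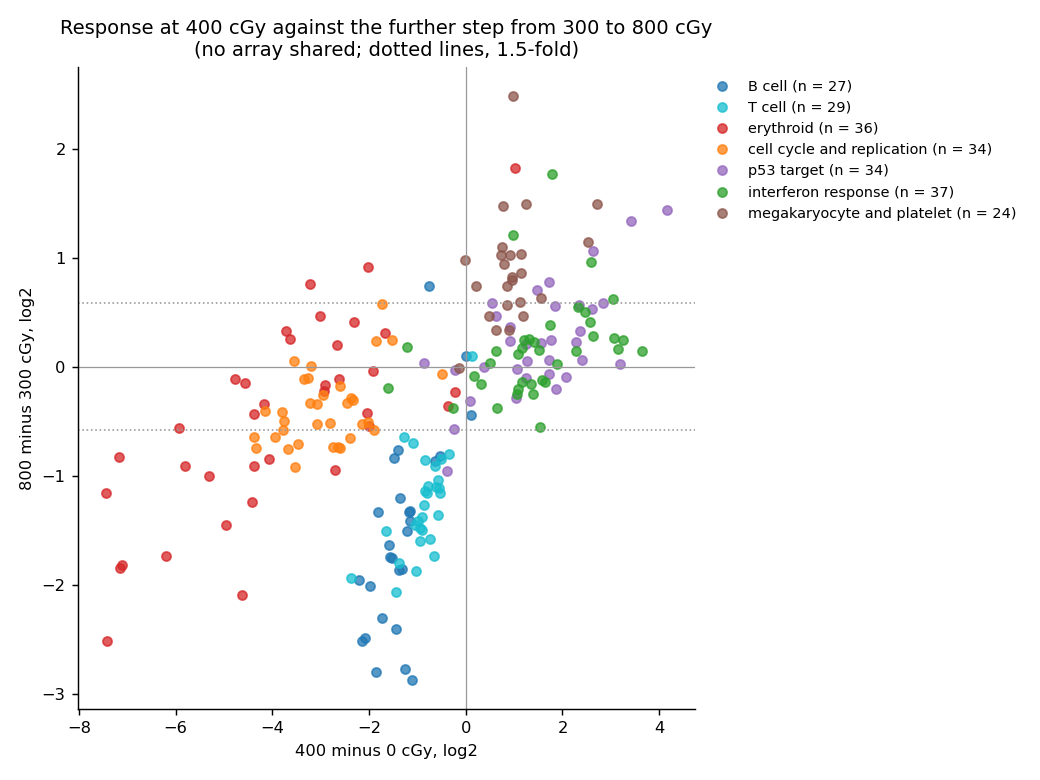
Difference 400 minus 0 cGy (horizontal, log2) against 800 minus 300 cGy (vertical, log2) for the tested members of 7 gene lists, each point 1 gene; dotted lines mark 1.5-fold. Lymphocyte genes lie far below 0 on the vertical axis, while cell cycle, p53 target and interferon genes lie mostly near or between the dotted lines.

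**Figure D3:**
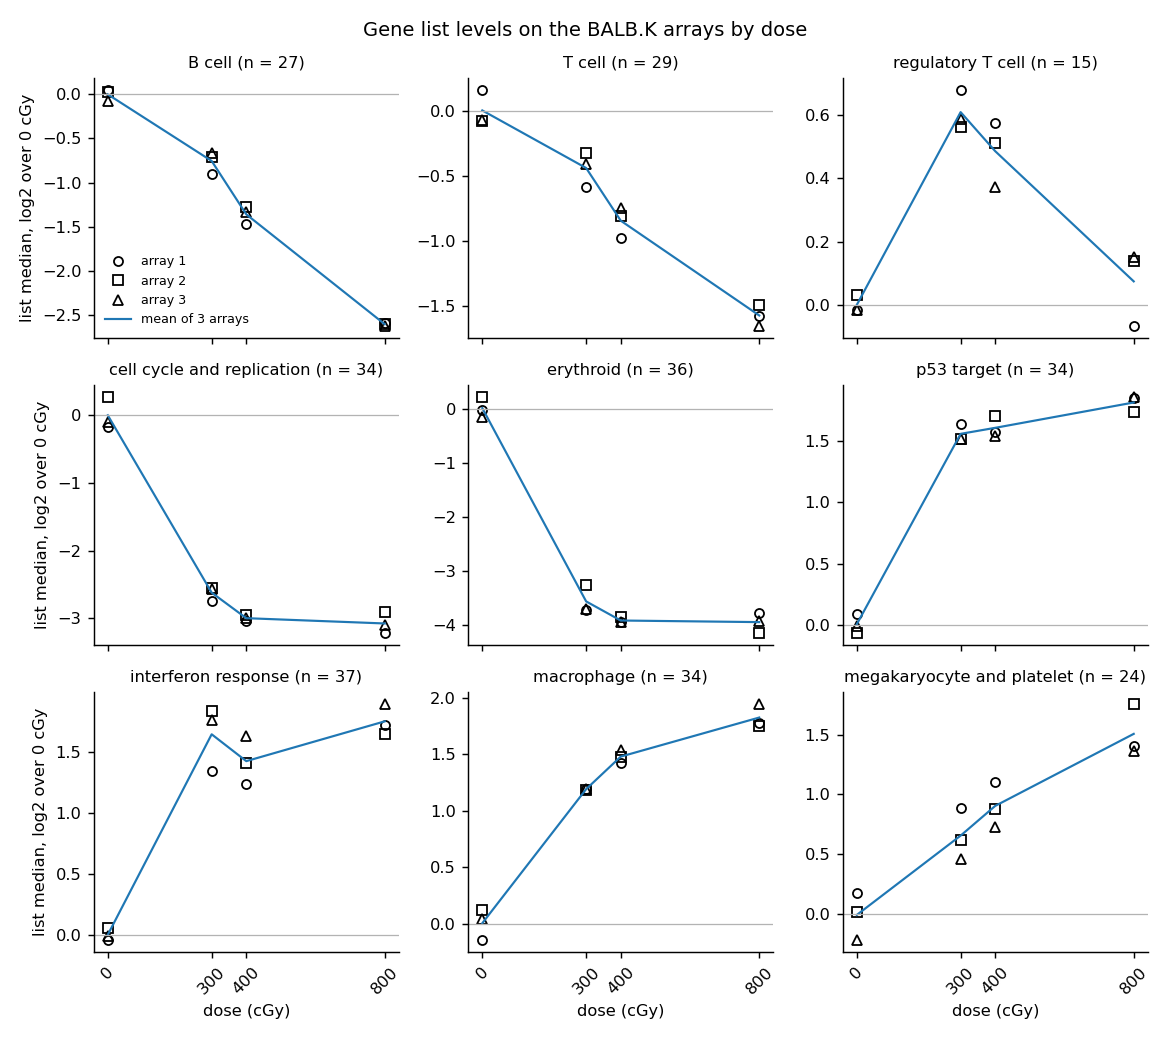
Median over the members of 9 gene lists of the log2 level less its mean at 0 cGy, by dose in cGy; symbols are single arrays, lines join the means of 3 arrays, and n is the number of genes. The B and T cell lists go on down from 300 to 800 cGy, and the erythroid and cell cycle lists are near their lowest level at 300 cGy.

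B cell genes had the lowest median of the 28 lists between 300 and 800 cGy. Of 27 tested members, 25 were lower and none higher, with a list median of -1.63 against 0.13 over all features, and the 3 arrays of each dose did not overlap in list level (-0.90, -0.71 and -0.66 at 300 cGy, -2.58, -2.60 and -2.62 at 800 cGy, as medians over 0 cGy). At 400 against 0 cGy the list median was -1.39, with 24 members lower. Ebf1, a factor that commits precursors to the B lineage, had levels of 0.50, 0.42 and 0.40 at 300 cGy and -2.23, -2.35 and -2.51 at 800 cGy. It fell by 2.80 ± 0.10 (6.98-fold, adjusted p = 1.3e-12 by limma), and its arrays at the 2 doses were far apart. Pax5, which holds B cell identity, was at -0.98, -1.01 and -1.18 at 300 cGy and -3.55, -3.47 and -3.62 at 800 cGy, and fell by 2.49 ± 0.17 (adjusted p = 8.1e-09). The complement receptor Cr2, high on marginal zone and follicular B cells, was at 6.09, 6.11 and 6.07 at 0 cGy, 5.80, 6.21 and 6.03 at 300 cGy and 3.20, 3.06 and 3.16 at 800 cGy. Its levels at 0 and 300 cGy overlapped, and it then fell by 2.87 ± 0.10 (7.31-fold, adjusted p = 8.9e-13). Cxcr5, the receptor that guides B cells into follicles, was at 3.35, 3.80 and 3.78 at 300 cGy and 0.89, 0.87 and 0.85 at 800 cGy, and fell by 2.77 ± 0.16. These 4 genes had no overlap between doses, which was also so for 53.1% of all features. The 2 members not called were Pou2f2 (0.09 ± 0.12), a factor of many lymphocytes, and the immunoglobulin heavy chain gene Ighm (0.74 ± 0.40), named after their values were seen. Pou2f2 was called higher on the spike-in scale (0.53). The count of 25 lower was the same within slide 3 and against the first 300 cGy array alone, and the list median stayed below 0 on every scale, from -1.89 on the array median to -1.2 on the spike-in scale, where 20 were lower and 1 higher.

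Genes of antigen presentation by MHC class II did not move as one. H2-Ob and H2-DMb2, which tune peptide loading in B cells, fell by 2.57 ± 0.17 and by 2.0 ± 0.19, and the co-stimulatory receptor Cd40 fell by 1.55 ± 0.11. H2-Ob was at 3.63, 3.82 and 3.80 at 300 cGy and 1.19, 1.09 and 1.27 at 800 cGy, with no overlap. The class II chain H2-Aa, which macrophages and dendritic cells also carry, was at -1.22, -1.31 and -1.31 at 300 cGy and -1.2, -0.86 and -1.22 at 800 cGy, and was not called (0.19 ± 0.17, interval within 1.5-fold). Whether its probe matches the k haplotype was not checked. Of 15 members 9 were lower and 1, Cd86, higher, beside 15.3% and 21.2% of all features, with a median of -0.60. Cd86, a co-stimulatory ligand named after its value was seen, had a difference of 0.27 ± 0.10. It was not called within slide 3 (0.18), on the array median (0.01), or when any 1 array but the second of 300 cGy was left out (0.18 to 0.28). The list median stayed below 0 on every scale, with 4 members lower on the spike-in scale.

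T cell genes fell with the dose as a group. Of 29 tested members 28 were lower and none higher, and the list median was -1.27. List levels over 0 cGy were -0.59, -0.32 and -0.41 at 300 cGy and -1.57, -1.49 and -1.65 at 800 cGy, with no overlap. Lef1, a factor of naive T cells, was at 0.49, 0.49 and 0.64 at 300 cGy and -1.56, -1.53 and -1.48 at 800 cGy, and fell by 2.06 ± 0.15 (4.18-fold, adjusted p = 1.5e-08). Cd8b1, a chain of the CD8 co-receptor, was at -0.49, 0.04 and -0.29 at 300 cGy and -2.12, -2.15 and -2.27 at 800 cGy, and fell by 1.93 ± 0.13 (adjusted p = 6.2e-09). Skap1, an adaptor of T cell receptor signalling, fell by 1.88 ± 0.12. Cd3e, a constant chain of the receptor complex, was at 2.06, 1.82 and 2.31 at 300 cGy and 1.14, 1.26 and 1.07 at 800 cGy, and fell by 0.91 ± 0.11 (adjusted p = 6.3e-06). It was not called on the spike-in scale (-0.47). The member not called was Cd4 (0.09 ± 0.10, within 1.5-fold), named after its value was seen. Within slide 3, 28 members were lower, and 27 against the first 300 cGy array alone. On the spike-in scale the median was -0.84, with 21 lower and 1 higher, Cd4 (0.53).

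**Figure D4:**
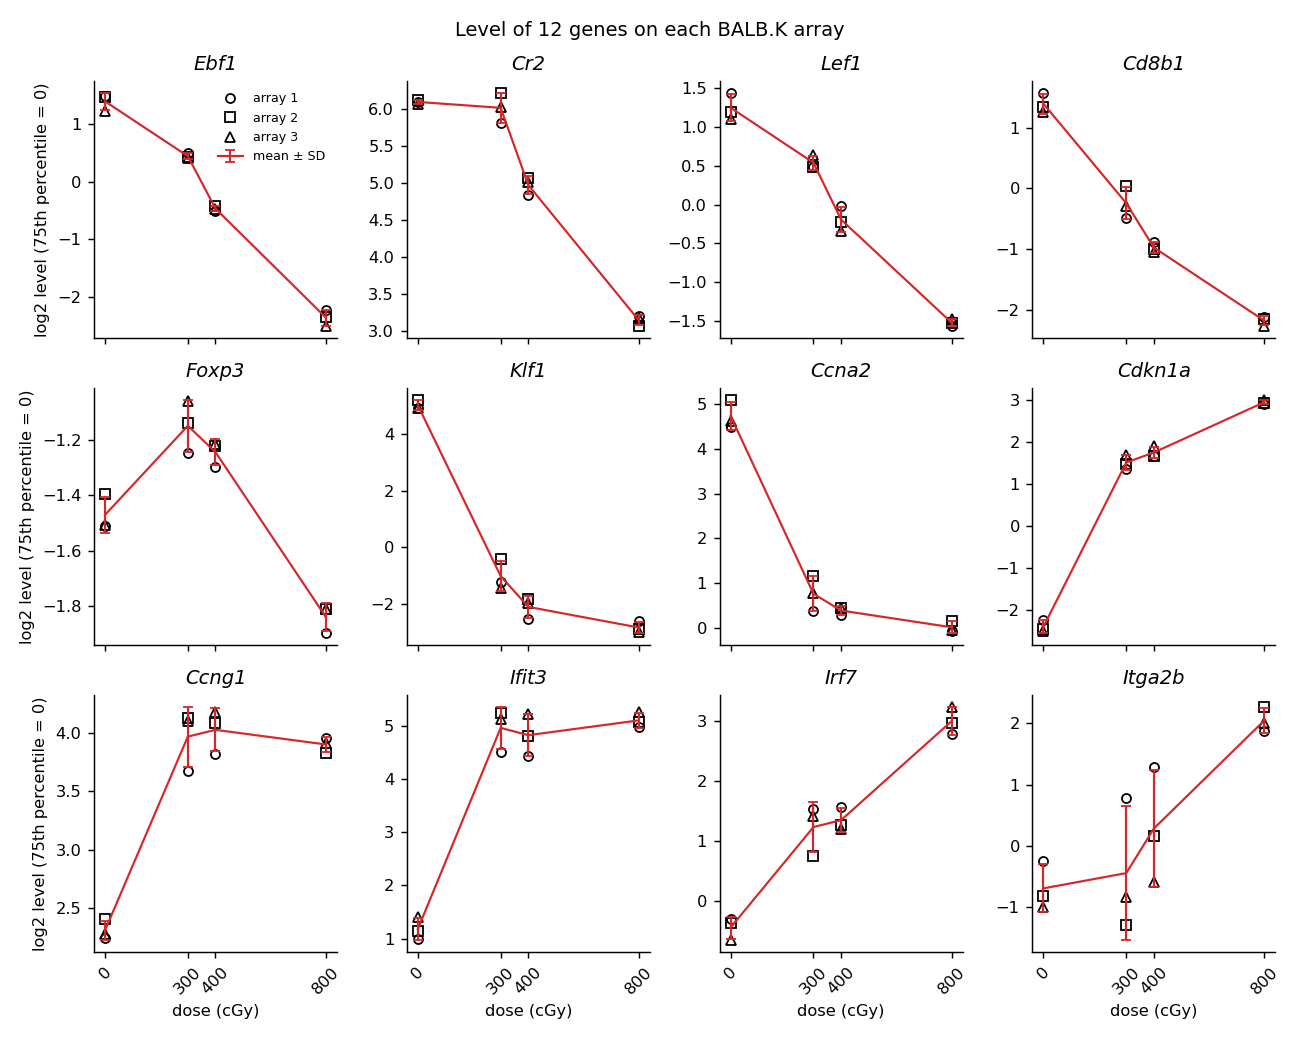
Log2 level of 12 genes on every BALB.K array by dose in cGy, with the 75th percentile of each array at 0; symbols are single arrays, and the line and bars give the mean ± SD of 3 arrays. Ebf1, Lef1 and Cd8b1 fall at every dose, Cr2 is as high at 300 as at 0 cGy, Ccng1 and Ifit3 stay level from 300 cGy, and Cdkn1a and Irf7 are higher again at 800 cGy.

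Regulatory T cell genes were partly higher after 400 than after 0 cGy, and lower at 800 than at 300 cGy. Over 0 cGy the list stood at 0.68, 0.56 and 0.59 at 300 cGy, and at -0.07, 0.14 and 0.15 at 800 cGy. At 400 against 0 cGy 8 of 15 members were higher and none lower, with a median of 0.58, which stayed above 0 on every scale. At 800 against 300 cGy 12 were lower and 1 higher, beside 15.3% and 21.2% of all features, with a median of -0.63. Foxp3, the factor that defines the lineage, was at -1.51, -1.40 and -1.51 at 0 cGy, -1.25, -1.14 and -1.06 at 300 cGy and -1.90, -1.81 and -1.81 at 800 cGy, so that the 300 cGy arrays were above and the 800 cGy arrays below the unirradiated ones. Between 300 and 800 cGy it fell by 0.69 ± 0.10 (adjusted p = 4.7e-05). It was not called on the spike-in scale (-0.26). The inhibitory receptors Tigit and Ctla4 fell by 0.97 ± 0.25 and by 0.95 ± 0.34. Tigit was not called on the spike-in scale (-0.54) or against the first 300 cGy array alone (-1.24), and Ctla4 not against that array (-0.79), on the spike-in scale or when any 1 array but that one was left out (-0.99 to -0.84). The higher member was Lrrc32 (0.86 ± 0.17), which displays latent TGF-beta and is also expressed by endothelium and platelets, named after its value was seen and not called against that array alone (0.45). The lower members numbered 10 within slide 3, 4 against that array alone and 0 on the spike-in scale, where the median was -0.20.

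Of 22 natural killer and cytotoxic genes 13 were lower and none higher, beside 15.3% and 21.2% of all features, and the median was -0.64. Eomes, a factor of natural killer and memory CD8 T cells, was at -0.24, -0.07 and -0.72 at 300 cGy and -1.78, -1.99 and -1.91 at 800 cGy, and fell by 1.55 ± 0.13 (adjusted p = 1.0e-07). The receptor genes Klra7 and Klra8 fell by 1.35 ± 0.18 and by 1.35 ± 0.11. They belong to a family of near-identical genes, so a probe may read more than one of them. The granule protease Gzmb, named after its value was seen, differed by -0.09 ± 0.17, within 1.5-fold. The median was below 0 on every scale, and on the spike-in scale (-0.21) 6 members were lower and 2 higher.

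Red cell precursor genes had lost most of their level by 300 cGy, and a subset went further. The erythroid list stood at -3.72, -3.25 and -3.70 at 300 cGy and at -3.77, -4.14 and -3.91 at 800 cGy over 0 cGy, and its arrays at 300 and 800 cGy did not overlap. Of 36 members 14 were lower and 4 higher, beside 15.3% and 21.2% of all features. The other 18 were not called, and the list median was -0.39. Ahsp, the chaperone of alpha globin, was at 6.30, 6.70 and 6.41 at 0 cGy, -0.17, 1.38 and 0.03 at 300 cGy and -1.98, -2.49 and -1.84 at 800 cGy, and fell by 2.52 ± 0.37 between 300 and 800 cGy (5.72-fold, adjusted p = 6.8e-05). Klf1, the factor that drives globin and red cell membrane genes, was at 4.92, 5.22 and 4.93 at 0 cGy, -1.22, -0.40 and -1.42 at 300 cGy and -2.61, -2.89 and -2.99 at 800 cGy, and fell by 1.82 ± 0.29 (adjusted p = 1.5e-04). The carbonic anhydrase gene Car1 fell by 2.10 ± 0.24. The 4 higher members, named after their values were seen, were the membrane skeleton gene Sptb (1.82 ± 0.24), the erythropoietin receptor gene Epor (0.91 ± 0.15), and the transcription factors Gata1 (0.76 ± 0.26) and Tal1 (0.46 ± 0.13), which megakaryocytes also express. Sptb differed by 1.04 with normexp. On the array median and against the first 300 cGy array alone neither Gata1 (0.50 and 0.38) nor Tal1 (0.20 and 0.41) was called. Gata1 was also not called without the second (0.78) or the third (0.55) array of 300 cGy or the second of 800 cGy (0.59), nor Tal1 without the third of 300 cGy (0.33) or the second of 800 cGy (0.40). The count of lower members was 9 without the second array of 300 cGy and 9 without the second of 800 cGy, where 2 were higher. Against the first 300 cGy array alone 8 were lower and 2 higher. On the spike-in scale the median was 0.04, with 7 lower and 9 higher, so no direction of the list as a whole held on every scale.

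Cell cycle and replication genes showed small further falls on top of large ones. At 400 against 0 cGy all 34 tested members were lower, with a median of -3.01. At 800 against 300 cGy 21 were lower and none higher, beside 15.3% and 21.2% of all features. The list median was -0.46, and 9 lay within 1.5-fold, beside 34.5% of all features. Kif11, a spindle motor, was at 0.29, 0.61 and 0.35 at 0 cGy, -3.17, -2.61 and -2.72 at 300 cGy and -3.77, -3.47 and -4.03 at 800 cGy, and fell by 0.92 ± 0.23 (adjusted p = 0.0045). Cyclin A2 (Ccna2), needed for DNA replication, was at 0.37, 1.15 and 0.77 at 300 cGy and -0.07, 0.17 and -0.04 at 800 cGy, and fell by 0.75 ± 0.19 (adjusted p = 0.00495). Neither was called on the spike-in scale (-0.49 and -0.31) or against the first 300 cGy array alone (-0.59 and -0.35). The proliferation marker Mki67 was at 2.94, 3.39 and 3.10 at 300 cGy and 2.59, 2.68 and 2.67 at 800 cGy, and fell by 0.50 ± 0.16, and was not called without the second 300 cGy array (-0.38) or the first of 800 cGy (-0.47), on the spike-in scale (-0.06) or against the first 300 cGy array alone (-0.29). Against the first 300 cGy array alone 6 members were lower and 1 higher, and on the spike-in scale none was lower and 3 higher, with a median of -0.02. Of 31 DNA repair genes 11 were lower and 3 higher, beside 15.3% and 21.2% of all features, with a median of -0.20. The median was 0.23 on the spike-in scale with none lower, and against that array alone fewer were lower. Among the higher ones were Xrcc1 (0.37 ± 0.10) of single-strand break repair and Ercc1 (0.56 ± 0.14) of excision repair, named after their values were seen and not called on the array median (0.11 and 0.30). Xrcc1 was also not called against the first 300 cGy array alone (0.39), nor Ercc1 when only the 6 arrays were fitted (0.56). The kinase Atr, which senses stalled replication, fell by 0.72 ± 0.11, and was not called on the spike-in scale (-0.29). The box CCAAT, searched on both strands from 250 bases before to 50 after the start, occurred in 23 of 30 members with a RefSeq promoter (76.7%), against 41.1% of all 27025 genes with one. The promoter of Kif11, the called member with the largest fall among those that carry it and have 1 RefSeq promoter, is shown with the box in capitals (RefSeq, GRCm38.p6, chr19:37376132-37376381, + strand, the 250 bases before the start).
Kif11: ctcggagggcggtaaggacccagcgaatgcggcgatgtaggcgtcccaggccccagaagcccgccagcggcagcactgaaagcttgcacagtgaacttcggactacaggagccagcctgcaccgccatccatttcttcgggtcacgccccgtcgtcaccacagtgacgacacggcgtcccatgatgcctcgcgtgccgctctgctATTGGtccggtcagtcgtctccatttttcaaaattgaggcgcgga

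p53 target genes had risen by 300 cGy, and most lay within 1.5-fold between 300 and 800 cGy. At 400 against 0 cGy 28 of 34 were higher, with a median of 1.64. At 800 against 300 cGy 9 were higher and 4 lower, beside 21.2% and 15.3% of all features. Within 1.5-fold lay 19, beside 34.5% of all features, and the median was 0.21. Cdkn1a, the p21 inhibitor of the cell cycle, was at -2.23, -2.47 and -2.51 at 0 cGy, 1.35, 1.48 and 1.69 at 300 cGy and 2.90, 2.93 and 3.00 at 800 cGy, and rose by 1.44 ± 0.10 more at 800 cGy (2.71-fold, adjusted p = 8.2e-09). The secreted stress factor Gdf15 was at -2.22, -2.51 and -2.36 at 0 cGy, 0.73, 0.13 and -0.06 at 300 cGy and 1.71, 1.54 and 1.57 at 800 cGy, and rose by 1.34 ± 0.21, and Ddit4l, an inhibitor of the growth kinase mTOR, rose by 1.06 ± 0.16. Gdf15 was not called against the first 300 cGy array alone (0.87). Cyclin G1 (Ccng1) was at 2.24, 2.40 and 2.28 at 0 cGy, 3.68, 4.14 and 4.11 at 300 cGy and 3.96, 3.83 and 3.92 at 800 cGy, with overlapping doses and a difference of -0.07 ± 0.13, within 1.5-fold. Mdm2, the ubiquitin ligase that degrades p53, was at 4.37, 4.46 and 4.28 at 300 cGy and 4.62, 4.64 and 4.83 at 800 cGy, and its difference of 0.33 ± 0.75 was not called. One unirradiated array read Mdm2 at -1.08, against 3.67 and 3.68 on the other two, and that spread enters the standard error. The 4 lower members were Ddb2 (-0.96 ± 0.11), a sensor of ultraviolet damage, Sesn1 (-0.57 ± 0.11), Tigar (-0.31 ± 0.09) and the death effector Bax (-0.29 ± 0.08), of which all but Bax were named after their values were seen. On the spike-in scale Bax (0.15) and Tigar (0.12) turned positive and Ddb2 (-0.52) and Sesn1 (-0.14) were not called. Without the second 300 cGy array 2 members were lower, with Bax at -0.23 and Tigar at -0.27. Against the first 300 cGy array alone 2 were lower. Tigar was also not called without the third array of 300 cGy (-0.27) or the second of 800 cGy (-0.26). The list median was -0.05 on the array median, with 4 higher and 7 lower, and 0.65 on the spike-in scale, with 17 higher and none lower.

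Interferon response genes, which carry antiviral defence, had also risen by 300 cGy and most lay within 1.5-fold between 300 and 800 cGy. Their promoters share a recognisable element, shown first. The core of the interferon-stimulated response element is GAAA followed after 2 bases by GAAA again. It was searched on either strand of the 300 bases from 250 before to 50 after the start. The core occurred in 18 of 28 members with a RefSeq promoter (64.3%) and in 3.99% of all genes with one. Oas3, the called member with the core and the largest rise between 300 and 800 cGy, and Ifit3, a member with 2 copies that was level between these doses, are printed with the core in capitals. They are the 250 bases before the RefSeq start on GRCm38.p6, chr5:120777660-120777909 on the - strand and chr19:34583279-34583528 on the + strand.
Oas3: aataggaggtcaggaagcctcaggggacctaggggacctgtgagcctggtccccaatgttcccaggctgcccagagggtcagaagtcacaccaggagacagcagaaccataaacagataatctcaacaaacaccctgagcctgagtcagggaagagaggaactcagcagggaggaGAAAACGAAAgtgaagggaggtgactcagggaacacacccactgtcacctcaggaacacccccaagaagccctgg
Ifit3: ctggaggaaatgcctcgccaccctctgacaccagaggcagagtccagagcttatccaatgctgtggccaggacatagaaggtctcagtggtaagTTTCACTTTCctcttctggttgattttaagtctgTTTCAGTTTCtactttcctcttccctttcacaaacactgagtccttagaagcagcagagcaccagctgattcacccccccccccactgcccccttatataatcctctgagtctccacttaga
A match describes these letters only, and both the level gene and the gene that rose carry it.

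At 400 against 0 cGy 33 of 37 interferon response members were higher, with a median of 1.41. At 800 against 300 cGy 7 were higher and 3 lower, beside 21.2% and 15.3% of all features. Within 1.5-fold lay 23, beside 34.5% of all features, and the median was 0.15, beside 0.13 for all features. Ifit3, which blocks viral RNA, was at 0.99, 1.15 and 1.40 at 0 cGy, 4.50, 5.24 and 5.13 at 300 cGy and 4.97, 5.06 and 5.26 at 800 cGy. The 2 irradiated groups overlapped, with a difference of 0.14 ± 0.19. Irf7, the factor that amplifies type I interferon, was at 1.53, 0.75 and 1.42 at 300 cGy and 2.78, 2.98 and 3.24 at 800 cGy, and rose by 1.76 ± 0.24 (3.40-fold, adjusted p = 2.8e-05), with no overlap. Oas3, which makes the activator of an RNA-degrading enzyme, was at -0.88, -0.96 and 0.11 at 300 cGy and 0.40, 0.68 and 0.83 at 800 cGy, and rose by 1.21 ± 0.21 (adjusted p = 3.1e-04). The first 300 cGy array, on slide 2 and with Y-linked signal, had the lowest list level of that group (1.34, 1.84 and 1.76 at 300 cGy, against 1.72, 1.65 and 1.90 at 800 cGy). Without it 2 members were higher. Within slide 3, where the differences are the same, the median was -0.05, with 2 higher and 7 lower. Against that array alone the median was 0.51, with 19 higher and none lower, and Ifit3 then differed by 0.60. Without the third 800 cGy array 3 were higher. Irf7 and Oas3 differed by 1.91 and 1.06 within slide 3 and by 1.47 and 1.51 against that array. The 3 lower members, named after their values were seen, were Iigp1 (-0.56 ± 0.15), Ifi27 (-0.38 ± 0.09) and Ifi47 (-0.38 ± 0.11). On the spike-in scale Ifi27 and Ifi47 turned positive (0.05 and 0.05). Without the second 300 cGy array Iigp1 (-0.37) and Ifi47 (-0.24) were not called, nor was Ifi47 without the first of 800 cGy (-0.34). The list had 2 higher and 11 lower on the array median (median -0.11) and 14 higher and none lower on the spike-in scale (median 0.58).

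Macrophage genes, already higher at 300 cGy, rose again. All 34 tested members were higher at 400 than at 0 cGy. At 800 against 300 cGy 20 were higher and none lower, beside 21.2% and 15.3% of all features, with a median of 0.43. List levels over 0 cGy were 1.2, 1.18 and 1.19 at 300 cGy and 1.78, 1.75 and 1.95 at 800 cGy. The haemoglobin scavenger receptor Cd163 was at -2.68, -3.66 and -4.10 at 300 cGy and -1.53, -1.44 and -1.78 at 800 cGy, and rose by 1.90 ± 0.37 (adjusted p = 9.2e-04), but was not called against the first 300 cGy array alone (1.1). The endosomal glycoprotein Cd68 was at -0.82, -1.30 and -0.83 at 300 cGy and 0.42, 0.48 and 0.30 at 800 cGy, and rose by 1.39 ± 0.20 (2.61-fold, adjusted p = 6.8e-05), and the lipopolysaccharide co-receptor Cd14 rose by 1.40 ± 0.12. C1qb, a chain of the complement protein that tags dying cells, was at 3.04, 2.34 and 3.20 at 300 cGy and 4.05, 4.22 and 4.24 at 800 cGy, and rose by 1.31 ± 0.18, with no overlap. Gpnmb, a glycoprotein of lysosome-rich macrophages, was well above background on 1 of 3 unirradiated arrays and all later ones, was at -2.95, -3.12 and -2.76 at 300 cGy and -2.46, -2.74 and -2.63 at 800 cGy, and its difference of 0.33 ± 0.34 was not called. Of 24 autophagy and lysosome genes 14 were higher and none lower, beside 21.2% and 15.3% of all features, with a median of 0.35. The count was 9 without the second 800 cGy array, and 9 against the first 300 cGy array alone. The autophagy receptor Sqstm1 was at 1.01, -0.12 and 0.32 at 300 cGy and 2.36, 2.65 and 2.38 at 800 cGy, and rose by 2.06 ± 0.23 (adjusted p = 3.6e-06). Both list medians were above 0 on every scale, with 11 macrophage genes higher and 2 lower on the array median and 2 lysosome genes higher and 2 lower.

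Megakaryocyte and platelet genes rose with the dose. Of 24 members 20 were higher and none lower, with a median of 0.84, against 0.90 at 400 against 0 cGy. List levels over 0 cGy were 0.89, 0.62 and 0.45 at 300 cGy and 1.40, 1.75 and 1.36 at 800 cGy, with no overlap. Itga2b, the alpha chain of the platelet fibrinogen receptor, was at -0.25, -0.82 and -1.0 at 0 cGy, 0.79, -1.28 and -0.83 at 300 cGy and 1.86, 2.27 and 2.0 at 800 cGy, and rose by 2.48 ± 0.43 (5.59-fold, adjusted p = 3.5e-04). Its 3 arrays at 300 cGy spread more widely than those at 800 cGy, the first being the highest. Tubb1, the platelet tubulin, was at -1.27, -1.72 and -1.87 at 300 cGy and -0.34, 0.24 and -0.28 at 800 cGy, and rose by 1.49 ± 0.22, and the thrombin receptor gene F2rl2, named after its value was seen, was at -3.63, -3.76 and -3.34 at 300 cGy and -2.54, -2.01 and -2.88 at 800 cGy, and rose by 1.1 ± 0.17 (0.68 with normexp). The platelet chemokine Pf4 rose by 0.46 ± 0.17, and was not called without the second (0.48) or the third (0.30) 300 cGy array or the first (0.50) or the second (0.36) of 800 cGy, on the array median (0.20) or against the first 300 cGy array alone (0.19). Within slide 3, 19 members were higher (median 0.93). Against the first 300 cGy array alone 5 were higher and none lower (median 0.62), with Itga2b at 1.25. The median was above 0 on every scale. The site AGATAA, bound by GATA factors and searched on both strands, occurred in 5 of 18 members with a RefSeq promoter (27.8%). It occurred in 9 of 24 erythroid members (37.5%) and in 12.7% of all genes with such a promoter. It is in capitals in the promoter of F2rl2, the called megakaryocyte gene with the site and the largest rise (GRCm38.p6, chr13:95696670-95696919, + strand, the 250 bases before the start).
F2rl2: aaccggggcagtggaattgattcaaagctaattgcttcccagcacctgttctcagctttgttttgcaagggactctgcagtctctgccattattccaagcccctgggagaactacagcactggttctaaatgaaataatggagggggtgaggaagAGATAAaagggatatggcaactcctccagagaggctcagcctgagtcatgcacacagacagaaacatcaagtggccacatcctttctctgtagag

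Stromal and endothelial genes rose in part. Of 35 members 17 were higher and none lower, beside 21.2% and 15.3% of all features, with a median of 0.40. The lymphatic and sinusoid receptor Lyve1 was at -2.60, -2.84 and -2.47 at 300 cGy and -0.53, -1.68 and -0.67 at 800 cGy, and rose by 1.68 ± 0.35, but was not called against the first 300 cGy array alone (1.64). The endothelial receptor kinase Tie1 rose by 1.17 ± 0.20 (0.69 against that array), and von Willebrand factor (Vwf), shared by endothelium and platelets, rose by 1.04 ± 0.19. Cxcl12, the chemokine that holds blood stem cells in their niche, was at 5.83, 5.70 and 5.70 at 300 cGy and 6.37, 6.38 and 6.21 at 800 cGy, and rose by 0.57 ± 0.11. Cxcl12 was not called on the scale of the array median (0.32), where 9 members were higher and 4 lower. Matn1, a cartilage matrix protein, was well above background on 2 of 3 unirradiated arrays, was at -0.54, -0.45 and -0.41 at 300 cGy and 0.60, 0.63 and 0.77 at 800 cGy, and rose by 1.13 ± 0.17 (adjusted p = 9.8e-05).

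Among the 10 largest falls, Jhy, Cpm, B3gnt5 and Dapl1 were well above background on all 6 arrays. Jhy, a gene of motile cilia, was at 0.19, 0.22 and 0.29 at 300 cGy and -3.42, -3.43 and -3.33 at 800 cGy, and fell by 3.63 ± 0.28 (12.4-fold, adjusted p = 4.6e-08). Cpm, a membrane carboxypeptidase, was at 1.91, 2.23 and 2.17 at 0 cGy, 0.64, 0.85 and 0.89 at 300 cGy and -2.76, -2.52 and -2.54 at 800 cGy, and fell by 3.40 ± 0.11 (10.6-fold). B3gnt5, an enzyme of glycolipid synthesis, was at 0.24, 0.63 and 0.55 at 300 cGy and -2.63, -2.69 and -2.76 at 800 cGy, and fell by 3.17 ± 0.16, and Dapl1 was at -0.07, 0.19 and 0.20 at 300 cGy and -2.81, -3.01 and -2.98 at 800 cGy, and fell by 3.04 ± 0.13. The choice of these genes required that the doses not overlap. The genes 4933426B08Rik, Tsga13, Ifngas1, Terb1 and Gm6545 were not well above background on any 800 cGy array and have a bound only. The bound sets the mean at 300 cGy against, on each 800 cGy array, the higher of the dimmest signal well above background and the probe's own. By it 4933426B08Rik was at least 8.88-fold lower, Tsga13 at least 8.72-fold, Terb1 at least 7.88-fold, Ifngas1, a noncoding RNA beside the interferon gamma gene, at least 6.81-fold and Gm6545 at least 4.91-fold. Rapgef4 was well above background on 1 of 3 arrays at 800 cGy and was at -4.45, -4.35 and -4.18 at 300 cGy and -8.71, -8.56 and -6.26 at 800 cGy. Its difference was -3.52 ± 0.53, and -0.94 with normexp, which raises dim signals by an offset of 50.

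Among the largest rises, Reg3b, an antimicrobial lectin of gut and pancreas, was at -4.17, -3.73 and -8.78 at 300 cGy and -2.67, 1.83 and 2.50 at 800 cGy, a difference of 6.12 ± 1.57 (adjusted p = 0.00603). It was not called when only the 6 arrays were fitted (6.12) or against the first 300 cGy array alone (4.73). Reg3a, of the same family, was not well above background on any 300 cGy array and was at least 23.5-fold higher at 800 cGy (-4.91, -1.43 and -0.51 at 800 cGy). The first 800 cGy array had the lowest level of both genes in its group. The exocrine pancreas list had no member called, and its level over 0 cGy was 5.85, 3.10 and 0.05 at 300 cGy and 2.94, 5.45 and 4.18 at 800 cGy. Its list median was 1.15 in the whole comparison, 2.63 within slide 3 and -1.86 against the first 300 cGy array. With the level of that list as a covariate Reg3b differed by 5.26. Krt8, a keratin of simple epithelia, was at -3.51, -4.88 and -3.74 at 300 cGy and -0.95, -2.08 and -1.0 at 800 cGy, and rose by 2.70 ± 0.58, and Mb, myoglobin of muscle, was at -5.95, -6.09 and -6.26 at 300 cGy and -3.75, -3.26 and -2.99 at 800 cGy, and rose by 2.76 ± 0.84. Mb was not called without the third 800 cGy array (2.59), and neither gene against the first 300 cGy array alone (2.17 for Krt8 and 2.62 for Mb). With normexp Mb differed by 1.13. Ptx3, a soluble pattern recognition protein, was not well above background at 300 cGy and at least 4.67-fold higher at 800 cGy, but not called against the first 300 cGy array alone. Cidec, a lipid droplet protein of fat cells, rose by 2.63 ± 0.89 and was not called without the second array of 300 cGy (2.09) or the first (2.14) or the third (2.35) of 800 cGy, or against the first 300 cGy array alone (1.92). The Y-linked genes Uty and Rbmy were also among the 10 largest rises. Y-linked signal was uneven over these arrays, and its part in these rises was not tested. Neither gene was called when only the 6 arrays were fitted, or without the second or the third 300 cGy array. Uty was also not called on the array median, with quantile normalization, or without the first, the second or the third 800 cGy array.

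Hspa1a, Hspb1 and Hsph1 of the heat shock genes rose at 800 cGy. The inducible chaperone Hspa1a was at -0.81, -3.86 and -3.86 at 0 cGy, -1.36, -1.54 and -1.98 at 300 cGy, -1.18, -1.50 and -1.81 at 400 cGy and 2.11, 1.73 and 1.30 at 800 cGy, and the 800 cGy arrays stood above the other 9. The difference was 3.34 ± 0.79 (10.1-fold, adjusted p = 0.0037). Against the first 300 cGy array alone it was 3.07 and not called. Hspb1, a small chaperone, was at 3.94, 3.35 and 3.29 at 300 cGy and 5.27, 4.94 and 4.79 at 800 cGy, and rose by 1.47 ± 0.26, and Hsph1, a partner of the large chaperones, rose by 1.36 ± 0.35. Hsph1 had been lower at 400 than at 0 cGy (-1.31). Of 23 immediate early and heat shock genes 8 were higher and 2 lower, beside 21.2% and 15.3% of all features. Fewer were higher against the first 300 cGy array alone. The lower ones, named after their values were seen, were the factors Egr2 (-0.77 ± 0.15) and Klf2 (-0.57 ± 0.09), which on the spike-in scale were not called (-0.34 and -0.14). Among 29 inflammatory cytokines and chemokines 7 were higher and 7 lower, beside 21.2% and 15.3% of all features. Fewer were lower against that array alone. The monocyte chemokine Ccl7 was at -4.58, -3.76 and -3.90 at 300 cGy and -2.26, -3.33 and -2.45 at 800 cGy, and rose by 1.40 ± 0.38 (adjusted p = 0.0082, 0.78 with normexp), and the lymphocyte cytokine Lta fell by 0.98 ± 0.10. The neutrophil protein S100a8 differed by -0.38 ± 0.25, and the plasma cell marker Sdc1 by 0.18 ± 0.12, neither called. Sdc1 was called without the third 300 cGy array (0.32).

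The 400 cGy arrays show whether change followed a straight line in dose between 300 and 800 cGy. The expected level was 0.8 of the 300 cGy mean plus 0.2 of the 800 cGy mean on the log2 scale. The 400 cGy mean lay above that line for 182 features (0.616%) and below it for 80 (0.271%), and these counts rested on the processing, from 6 in all on the spike-in scale to 2115 on the array median. Leaving out 1 array gave from 11, without the second of 400 cGy, to 861, without the first of 300 cGy. Below the line lay 3 members of the B cell list, named after their values were seen: Cr2 (-0.47 ± 0.09), the B lineage factor Spib (-0.47 ± 0.08) and the survival receptor Tnfrsf13c (-0.46 ± 0.10). The replication licensing genes Mcm2 (-0.59 ± 0.10) and Mcm5 (-0.49 ± 0.10) also did, and of the stroma list the collagen genes Col1a1 (-0.63 ± 0.13) and Col3a1 (-0.68 ± 0.12) and smooth muscle actin (Acta2, -0.93 ± 0.15), while the receptor Pdgfra (0.42 ± 0.09) lay above it. In the p53 target, erythroid, T cell, macrophage, megakaryocyte and interferon lists none was called off it. A feature not called off the line is not shown to lie on it. Pdk4, an inhibitor of glucose oxidation, was at 0.86, -0.01 and -0.09 at 300 cGy, 2.67, 1.72 and 1.81 at 400 cGy and 1.49, 1.61 and 1.73 at 800 cGy, above the line by 1.54 ± 0.31 (adjusted p = 0.031 by limma). Matn4, a matrix protein related to Matn1, was at -0.52, 0.66 and -0.24 at 300 cGy, -1.41, -1.84 and -1.77 at 400 cGy and -0.91, -0.38 and -0.06 at 800 cGy, a departure of -1.55 ± 0.29. The other three of the 5 largest departures, 9630009A06Rik, Defb48 and Gm10639, were not well above background at 300 cGy.

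The step to the myeloablative dose differed between the strains for 1519 features. The BALB.K step from 300 to 800 cGy was the higher for 778 (2.63%) and the lower for 741 (2.51%), against the B10.BR step from 300 to 900 cGy, in which 6610 features (22.4%) were called. The highest doses differ, and the B10.BR arrays of 300 cGy were on slide 1 and those of 900 cGy on slide 2. With the slide as a block 52 features were called. Only the BALB.K arrays of 300 cGy and the B10.BR arrays of a further dose, 500 cGy, spanned slides. Each had a single array apart, so the slide block rests on those arrays. Leaving out 1 array gave from 414, without the second of 800 cGy in BALB.K, to 1760, without the first of 300 cGy in BALB.K. The count also moved by over 1.5 times without the second BALB.K array of 300 cGy (712), the third of 800 cGy (844), the first B10.BR array of 300 cGy (738) and the first (803), the second (1003) or the third (832) of 900 cGy. Jhy was at -5.47, -5.64 and -6.37 at 300 cGy and -5.23, -6.15 and -6.45 at 900 cGy in B10.BR, already low at 300 cGy, and its difference there was -0.11 (difference of the steps -3.52 ± 0.40, adjusted p = 1.8e-04 by limma). The red cell membrane genes Epb42 and Kel were in B10.BR not well above background on any 900 cGy array, after means of -4.30 ± 0.48 and -3.30 ± 0.45 (SD, n = 3) at 300 cGy. In BALB.K they stayed well above background at 800 cGy, with -3.15, -3.84 and -3.33 at 800 cGy for Epb42 and -1.56, -1.93 and -1.59 at 800 cGy for Kel. The osteocalcin genes Bglap2 and Bglap3, of bone, rose by 2.29 and 2.10 in BALB.K and differed by -1.38 and -0.99 in B10.BR. Neither BALB.K rise was called against the first 300 cGy array alone (1.15 and 0.85). These paralogs are near-identical, so their probes may read both.

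**Figure D5:**
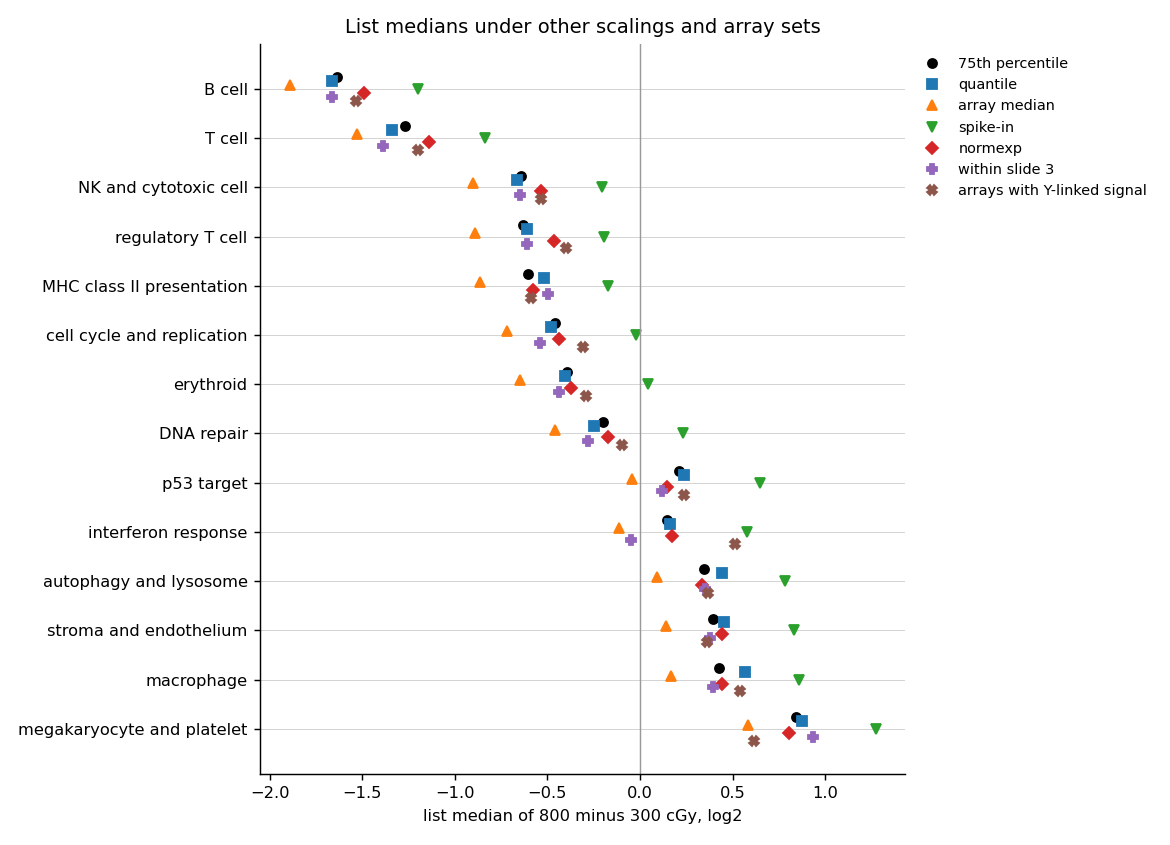
Median of 800 minus 300 cGy (log2) over the members of 14 gene lists under the main scale (75th percentile) and under the other treatments of the signal and choices of arrays named in the key. The B and T cell medians lie below 0 and the megakaryocyte median above 0 throughout; the interferon, p53 target, erythroid and DNA repair medians lie on both sides of 0.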

How the data were processed

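Spleen RNA of 24 pools of 3 mice was hybridised, 1 pool to each one-colour Agilent array, and the probe coordinates of the design are on mm9, per the file headers. The deposited values are processed spot intensities from Agilent Feature Extraction 10.5.1.1, background-subtracted and detrended by the authors per the file headers, and not scaled between arrays. A deposited table of log2 values, centred per probe by the authors with its baseline not given in the sources used here, served only as an alternative. No 2 arrays held identical values. Intensities were put on the log2 scale with each array's 75th percentile at 0, control probes and outlier spots were left out, and probes well above background on 3 of 3 arrays of at least 1 group were kept. The brightest probe stood for a gene. limma 3.58.1 (lmFit with 8 group means over 24 arrays, then eBayes, 18.13 degrees of freedom) gave all contrasts, with Benjamini-Hochberg adjustment at 0.05 over 29532 features. Probe names were brought to RefSeq symbols by accession where the files gave one, otherwise by symbol or synonym.

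In simulated data 62 of 100 genes changed by 1 on the log2 scale between 300 and 800 cGy were called, and 94 of 100 changed by 2. Of the 29532 simulated features 29332 were unchanged, whereas 36.5% were called in the data. The adjustment therefore differs, and these rates do not carry over to the data. The members and the gene lists were chosen with earlier results of these data known. Named genes were the 10 largest called rises and falls with a RefSeq symbol and no overlap, the 3 most changed called genes of every list, the 5 largest departures from the line and in the strain difference, and a list of markers, and the text gives part of them. One named marker is not reported here. Depth has no counterpart on arrays, and the 3 arrays of a group limit the precision. Alternatives covered the scaling, the background correction, the filters, the probe for a gene, the arrays fitted, the slide, the replicate number, the Y-linked signal, the exocrine level as a covariate and each array left out.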

Additional observations from a re-analysis of the deposited data

Results flagged for a closer look

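The step from 300 cGy to the myeloablative dose was tested for a difference between the strains, and 1519 features passed limma's adjusted threshold, 778 with the higher step in BALB.K and 741 with the lower. Of the 5 named genes, Jhy had the lower BALB.K step, with a difference of -3.52 between the steps. The BALB.K step less the B10.BR step was 3.09 for Bglap3, 3.67 for Bglap2, 3.43 for Epb42 and 3.81 for Kel. The BALB.K step itself was -1.0 for Epb42 and -0.56, not called, for Kel. For Epb42 and Kel the B10.BR arrays of 900 cGy were not well above background, so these measured differences are not folds. The strains' highest doses differ, and the B10.BR doses lie on different slides, so strain, dose and slide cannot be told apart in this test.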

How the results depend on the processing

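The count of features called between 300 and 800 cGy was 10425 within slide 3, 9165 from the deposited log2 table, 7610 to 10407 with 1 array left out and 6087 (3685 higher, 2402 lower) with the arrays that carry Y-linked signal. The scale moved its parts most, to 2476 higher and 8857 lower on the array median and 12527 higher and 583 lower on the spike-in scale. The count at 400 against 0 cGy was 15217 in the main fit, 11474 with the slide as a block and 10320 on the spike-in scale. With 1 array left out it was 13530 to 14876. Features within 1.5-fold numbered 2578 on the spike-in scale, 19100 with normexp, 8825 to 9786 with 1 array left out, and 19289 lay within 2-fold. Features off the straight line numbered 2115 on the array median, 6 on the spike-in scale, 791 with normexp, 22 with BALB.K arrays only, 952 with the arrays compared only, 803 with the slide as a block, 21 from the deposited table, 10 with Y-linked signal only, 96 with the exocrine covariate and 11 to 861 with 1 array left out. The strain difference had 3412 features on the array median, 947 on the spike-in scale, 525 with the arrays compared only, 52 with the slide as a block and 414 to 1760 with 1 array left out. The share of fallen features that were lower again was 60.1% on the array median, 9.16% on the spike-in scale and 28.1% to 42.7% with 1 array left out. The share of risen ones that were higher again was 15.1%, 62.9% and 27.9% to 39.5%, and 22.5% with Y-linked signal only. On the spike-in scale the estimates of Bax (0.148), Tigar (0.121), Ifi27 (0.0503) and Ifi47 (0.0526) turned positive and were not called. The cause of these moves was not tested, apart from those that fit fewer arrays. Over 2461 gene values in settings other than leaving out an array, 2254 kept direction and side of the threshold, and with 1 array left out 827 of 930 did. The setting that kept the main sorting and took the 800 against 300 cGy step within slide 3 was chosen after seeing the data. The replicate numbers do not pair the samples (correlations of deviations between same-numbered arrays -0.34, 0.06 and -0.09). With them as a block the counts were 11279 at 800 against 300 cGy, 15424 at 400 against 0 cGy, 10609 within 1.5-fold, 336 off the line and 2002 in the strain difference. Where no array of a dose was well above background, signal limits a fold to a bound.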
